A study of Mus musculus with 19 samples.

Results

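The D-type cyclin genes *Ccnd1*, *Ccnd2* and *Ccnd3* and the genes of their partner kinases, *Cdk4* and *Cdk6*, were followed in the cornea and conjunctiva of mice with free access to food (ad libitum, AL) and of mice under calorie restriction (CR). These 5 genes, of 24552 listed once in the deposited tables, were taken by symbol. They were chosen by a family membership and by measured values of the same libraries, namely the higher *Ccnd2* level in the cornea under CR. For this reason the cornea values are described without a test of the 5 genes, and tests of them are given in the conjunctiva only.

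The mice were C57BL/6 by the labels and female C57BL/6J by the study's methods, with no transgene or deletion in any group. The cornea was sampled as scraped corneal epithelium and the conjunctiva was excised whole, giving 10 cornea libraries (AL, n = 5; CR, n = 5) and 9 from the conjunctiva (AL, n = 4; CR, n = 5). The titles carry the marks 6M and 50W in all 4 groups, and the labels do not spell them out. By the methods, mice were co-housed, and whether AL and CR mice shared a pen is not stated. CR ran for 4 months in mice that were at least 6 months old at its start. CR mice received 1 meal a day shortly before lights off, and CR was introduced in steps. In 1 of the cohorts the CR chow was enriched in vitamins and micronutrients. Which cohort gave these libraries, and the hour of tissue collection, were not given in the sources used here. Several tissues were taken from each mouse, and 8 title numbers occur in both tissues with the same diet, so the conjunctiva cannot be taken as an independent set of animals. Where the labels do not say that libraries come from separate mice, p-values measure only the spread between these libraries.

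D-type cyclins are the regulatory subunits through which growth signals enter the cell cycle. Each binds Cdk4 or Cdk6, and the resulting kinase phosphorylates the retinoblastoma protein and its relatives, which releases E2F transcription factors and allows the genes of DNA replication to be transcribed. The INK4 proteins bind the kinases and block them, while CIP/KIP proteins help to assemble the complexes and inhibit the later Cdk2 kinase. The corneal epithelium renews itself throughout life from basal and limbal cells, and growth factors acting on epithelia induce D-type cyclins.

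The 3 cyclins are paralogs, and their coding sequences show how they are related and how well reads can be assigned to one of them. Each begins with a short motif through which D-type cyclins bind the retinoblastoma protein, known as LxCxE. The first 60 coding bases of each cyclin from the GENCODE M21 transcripts (GRCm38) are shown for this motif, with its 5 codons in capitals. The match begins at codon 5 in *Ccnd1* and at codon 3 in *Ccnd2* and *Ccnd3*.
Ccnd1: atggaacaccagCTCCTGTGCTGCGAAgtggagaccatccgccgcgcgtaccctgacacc
Ccnd2: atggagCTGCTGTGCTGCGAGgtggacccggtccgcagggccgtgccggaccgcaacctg
Ccnd3: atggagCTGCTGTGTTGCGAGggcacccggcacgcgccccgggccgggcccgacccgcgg

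Over the aligned coding bases *Ccnd1* and *Ccnd2* were 71.4% identical, *Ccnd2* and *Ccnd3* 68.8%, and *Ccnd1* and *Ccnd3* 66.6%. The kinase genes *Cdk4* and *Cdk6* were 68.8% identical. The longest stretch shared exactly by transcripts of any 2 of the 5 genes was 20 bases, far below the length of a read. Reads from one member are therefore distinct from those of another, although each gene has an annotated partner on the opposite strand.

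On GRCm38, *Ccnd1* (gene identifier 12443) lies on the minus strand of chromosome 7 from 144929931 to 144939925 and shares 1100 exon bases with *LTO1*. *Ccnd2* (12444) lies on the minus strand of chromosome 6 from 127125162 to 127152193 and shares 372 bases with *Gm43126* and 368 with *9330179D12Rik*. The latter averaged between 1.89 and 13.1 normalized counts over the 4 groups, against group means of 3742 or more for *Ccnd2*. *Ccnd3* (12445) runs from 47505051 to 47599691 on the plus strand of chromosome 17 and overlaps *Bysl* over 361 exon bases. *Cdk4* (12567) occupies 127063534 to 127067920 of the plus strand of chromosome 10 and overlaps *Tspan31* over 641 bases. *Cdk6* (12571) spans 3341485 to 3531008 of the plus strand of chromosome 5 and overlaps *Gm17590* over 368 bases. The use of strand in counting was not settled, and without it reads of such partners cannot be told apart. *Bysl* averaged 125 to 163 normalized counts and *Tspan31* 88.3 to 192 over the 4 groups. *LTO1*, *Gm43126* and *Gm17590* had no values under these symbols, so the level of the *Ccnd1* partner could not be read.

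The promoters of the 2 kinases are shown because they differ in 1 motif that clock and Myc proteins bind. They come from the RefSeq promoter table (GRCm38.p6), which was matched by symbol for *Cdk4*, *Cdk6* and *Ccnd3*, 3 of the 5 members. In all, 5 motifs were searched on both strands in the 250 bases before each start site: the E-box CACGTG, the D-box TTATGTAA, the forkhead motif TGTTTAC, the AP-1 site TGACTCA and the E2F site TTTCCCGC. E-boxes are in capitals below, on the plus strand, at chr10:127063285-127063534 for *Cdk4* and chr5:3343643-3343892 for *Cdk6*.
Cdk4: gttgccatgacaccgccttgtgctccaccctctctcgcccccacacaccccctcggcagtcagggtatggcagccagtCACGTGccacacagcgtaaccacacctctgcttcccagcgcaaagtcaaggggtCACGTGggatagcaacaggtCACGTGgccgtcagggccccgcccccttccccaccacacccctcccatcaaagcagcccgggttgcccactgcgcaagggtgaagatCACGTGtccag
Cdk6: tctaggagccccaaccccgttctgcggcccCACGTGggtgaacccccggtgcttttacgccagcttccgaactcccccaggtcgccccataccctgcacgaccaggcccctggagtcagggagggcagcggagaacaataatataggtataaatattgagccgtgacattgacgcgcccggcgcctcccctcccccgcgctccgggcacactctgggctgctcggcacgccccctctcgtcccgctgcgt

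The *Cdk4* window held 4 E-boxes and the *Cdk6* window 1, and 6.02% of the 32851 windows in the table held at least 1. The first of 2 *Ccnd3* windows held 1 forkhead motif, found in 3.17% of all windows, and the second held none of the 5 motifs. The D-box (0.819% of windows), the AP-1 site (4.46%) and the E2F site (0.895%) were not found in the windows of the 3 genes. These matches are a description of letters and no binding was measured.

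Counted reads per library ranged from 10354125 to 14681223. A count of 0 allows up to 3 reads, which was 2.27 to 3.37 normalized counts, and every member stood far above this floor, with the smallest count being 195 reads for *Cdk4*. Intervals of counting would cover counting error only. The corneal libraries carried the cornea markers Krt12 and Aldh3a1 at high level, and 5 genes marking corneal epithelium summed to between 470354 and 695373 normalized counts per library. They also held the conjunctival markers Krt13 (means of 27224 under AL and 28747 under CR) and Krt4 (3360 and 6628). Aldh3a1 was present in the conjunctiva as well (34669 under AL and 46515 under CR). The share of genes at 0 was higher in the cornea under CR, at 44.4% ± 3.06 (SD, n = 5) against 40.5% ± 2.70 (n = 5) under AL, with AL 4 at 45.2% and CR 1 at 39.9% lying with the other diet. In the conjunctiva this share was 37.1% ± 2.29 (n = 5) under CR and 35.3% ± 1.90 (n = 4) under AL.

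**Figure D1:**
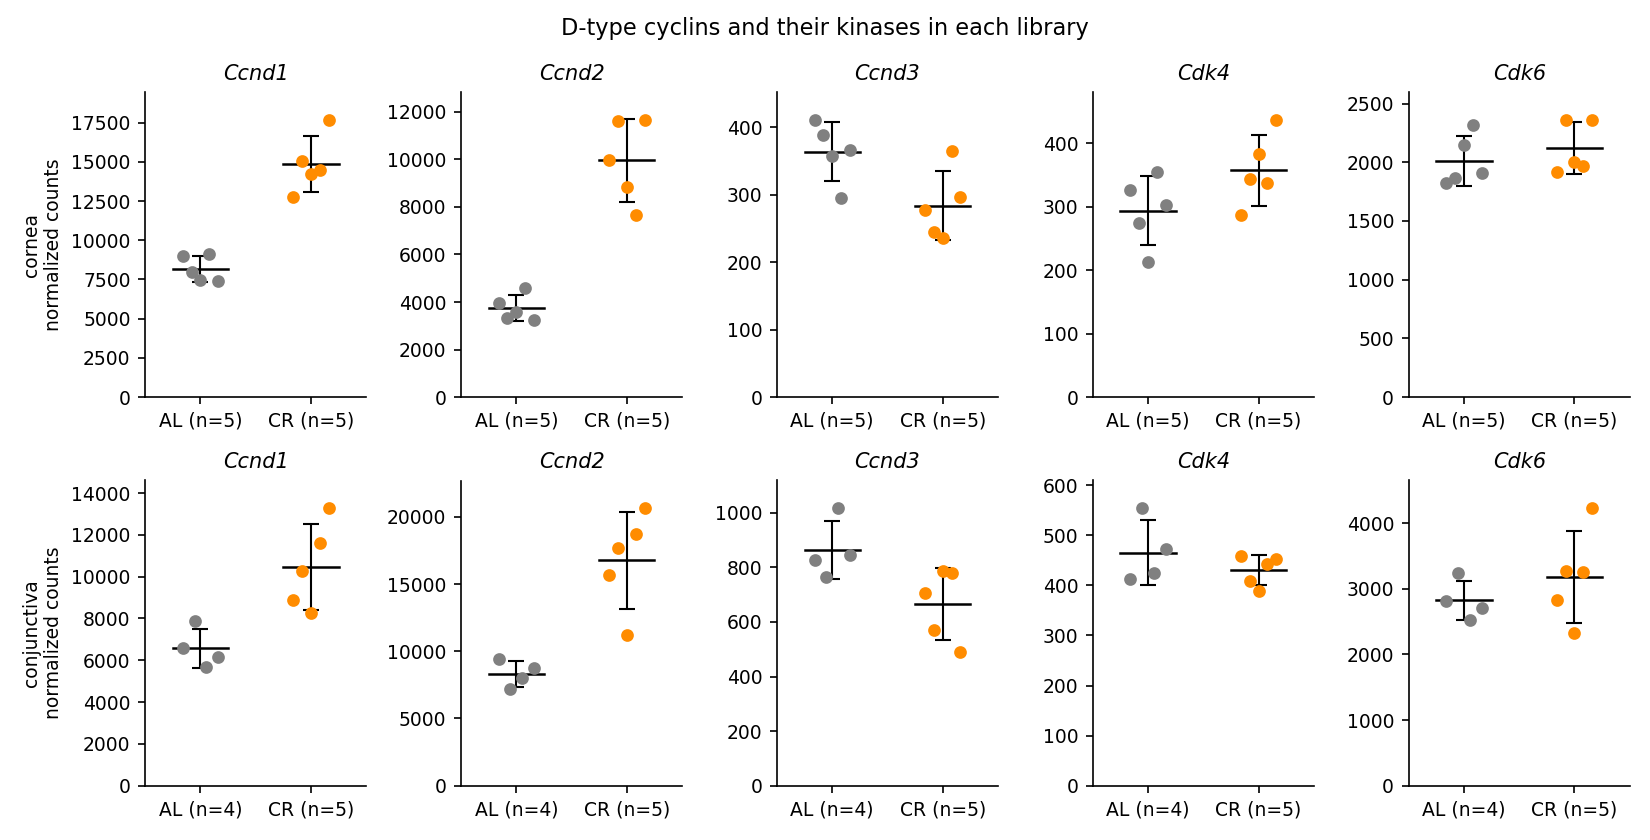
Normalized counts (vertical axes, linear and starting at 0) of the 5 genes in every library of the cornea (upper row) and conjunctiva (lower row) by diet. Each point is 1 library, the long bar is the mean and the error bar the SD. *Ccnd1* and *Ccnd2* do not overlap between diets in either tissue, while the points of *Ccnd3*, *Cdk4* and *Cdk6* do.

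*Ccnd2*, a cyclin known for its part in the growth of ovarian follicles and pancreatic beta cells, differed most between diets. In the cornea the normalized counts of *Ccnd2* in AL 1 to AL 5 were 3945, 3333, 3570, 4610 and 3253. Those in CR 1, 2, 3, 4 and 7 were 9971, 11609, 8844, 7670 and 11665. All CR libraries were above all AL libraries, and the lowest CR library stood 1.66-fold above the highest AL library. The mean was 3742 ± 554 (SD, n = 5) under AL and 9952 ± 1741 (n = 5) under CR, a ratio of 2.66. The difference of log2(normalized count + 1) was 1.40 ± 0.13 (SE). Among the 1958 corneal genes with a mean over 1000 normalized counts, 3 including *Ccnd2* were higher under CR by at least as much. The genes were chosen with this difference known, so nothing is read from this rank. In these bulk samples, more cells of a type and more RNA per cell, or fewer cells and less RNA per cell, cannot be told apart.

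*Ccnd1*, the cyclin most directly induced by growth factor and adhesion signals, was the most abundant member in the cornea. Its normalized counts in the 5 AL cornea libraries were 8988, 7993, 7446, 9116 and 7400, and in the 5 CR libraries 12743, 15080, 14240, 14488 and 17678. Again the diets did not overlap, with the lowest CR library 1.40-fold above the highest AL library. The means were 8189 ± 823 under AL and 14846 ± 1802 under CR (SD, n = 5 each), a ratio of 1.81 and a log2 difference of 0.86 ± 0.11 (SE). Of the 1958 abundant corneal genes, 13 including *Ccnd1* were higher by as much or more. Nothing is read from this rank either, since the choice of genes drew on this comparison.

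*Ccnd3*, the D-type cyclin best known from lymphocytes and muscle, lay in the opposite direction. It stood at 411, 388, 357, 295 and 366 normalized counts in the AL cornea libraries and at 278, 245, 236, 364 and 296 in the CR libraries. AL 4 lay among the CR libraries and CR 4 among the AL libraries, while the other 4 libraries of each diet were apart. The mean was 363 ± 43.5 under AL and 284 ± 51.0 under CR (SD, n = 5 each), and the log2 difference was −0.36 ± 0.15 (SE).

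The kinases differed little in the cornea. *Cdk4* was at 326, 275, 213, 354 and 302 normalized counts under AL and at 287, 344, 383, 337 and 437 under CR. *Cdk6* was at 1822, 1866, 2143, 2316 and 1909 under AL and at 1920, 2362, 2005, 1969 and 2360 under CR. Both genes overlapped widely between diets. *Cdk4* averaged 294 ± 53.8 and 358 ± 56.2, a log2 difference of 0.29 ± 0.16 (SE), and *Cdk6* averaged 2011 ± 211 and 2123 ± 219, a log2 difference of 0.08 ± 0.11 (n = 5 each).

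With limma's adjusted p under 0.05 and a fold over 1.5, 1.22% of the 12278 corneal genes tested were called and 3.97% did not overlap between diets. By the same rule 2 of the 5 members were called, *Ccnd1* and *Ccnd2*, and these 2 did not overlap either. Nothing is read from this count, since the choice of genes drew on this comparison. The median log2 difference of the 5 genes was 0.29, and that of all genes tested was −0.03.

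In the conjunctiva *Ccnd2* rose. Its normalized counts were 9421, 7164, 7986 and 8728 in AL 1, 3, 4 and 5, and 15693, 17678, 11188, 18740 and 20650 in CR 1 to CR 5. All 5 CR libraries were above all 4 AL libraries, with CR 3 the closest at 1.19-fold the highest AL library. The mean went from 8325 ± 971 (SD, n = 4) to 16790 ± 3608 (n = 5), a ratio of 2.02. The log2 change was 0.99 ± 0.17 (SE; 95% interval 0.62 to 1.36), with an adjusted p of 0.015 by limma over all genes tested. The call was lost when single libraries were left out, namely AL 3 (adjusted p = 0.0649), AL 4 (0.0798), AL 5 (0.0527), CR 1 (0.0557), CR 2 (0.0731) or CR 4 (0.0510), and it was kept without AL 1 (0.0458), CR 3 (0.00101) or CR 5 (0.0138). The change itself stayed between 0.91 and 1.13 in those fits.

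*Ccnd1* was also higher in each conjunctival CR library but did not pass the test. Its normalized counts were 6568, 7869, 5690 and 6161 under AL and 8904, 10278, 8244, 11607 and 13274 under CR. The gap between diets was narrow, the lowest CR library (CR 3) standing 1.05-fold above the highest AL library (AL 3). The means were 6572 ± 936 (SD, n = 4) and 10461 ± 2037 (n = 5), a ratio of 1.59. The log2 difference was 0.66 ± 0.16 (SE; 95% interval 0.32 to 1.004) with an adjusted p of 0.112 by limma. Without CR 3 the gene was called, with a log2 change of 0.74 and an adjusted p of 0.0304.

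*Ccnd3* read 829, 766, 1017 and 847 normalized counts in the AL conjunctiva libraries and 706, 570, 786, 781 and 491 in the CR libraries. CR 3 and CR 4 overlapped the AL range and the other 3 CR libraries lay below it. The log2 difference was −0.39 ± 0.17 (SE; 95% interval −0.74 to −0.04), from 865 ± 107 (SD, n = 4) to 667 ± 131 (n = 5), and it did not pass the test (limma adjusted p = 0.464). The estimate was close to the −0.36 of the cornea.

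*Cdk4* in the conjunctiva read 412, 554, 424 and 472 normalized counts under AL and 458, 409, 389, 442 and 453 under CR. *Cdk6* read 2813, 3236, 2529 and 2715 under AL and 2831, 3270, 2332, 3261 and 4228 under CR. Neither kinase separated by diet. The log2 difference of *Cdk4* was −0.11 ± 0.15 (SE; 95% interval −0.42 to 0.21; limma adjusted p = 0.875). That of *Cdk6* was 0.15 ± 0.16 (95% interval −0.19 to 0.50; adjusted p = 0.825). The intervals leave room for changes of up to about 0.5 on the log2 scale in *Cdk6*, and they are not limits of detection.

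In the conjunctiva 1 of the 5 members was called, against 0.359% of the 13929 genes tested, and 2 of the 5 did not overlap between diets, against 3.87% of all genes. The median log2 difference was 0.15 for the 5 genes and −0.02 for all genes. Title numbers are shared with the cornea libraries, whose values entered the choice of genes, so these conjunctiva counts are no independent check.

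**Figure D2:**
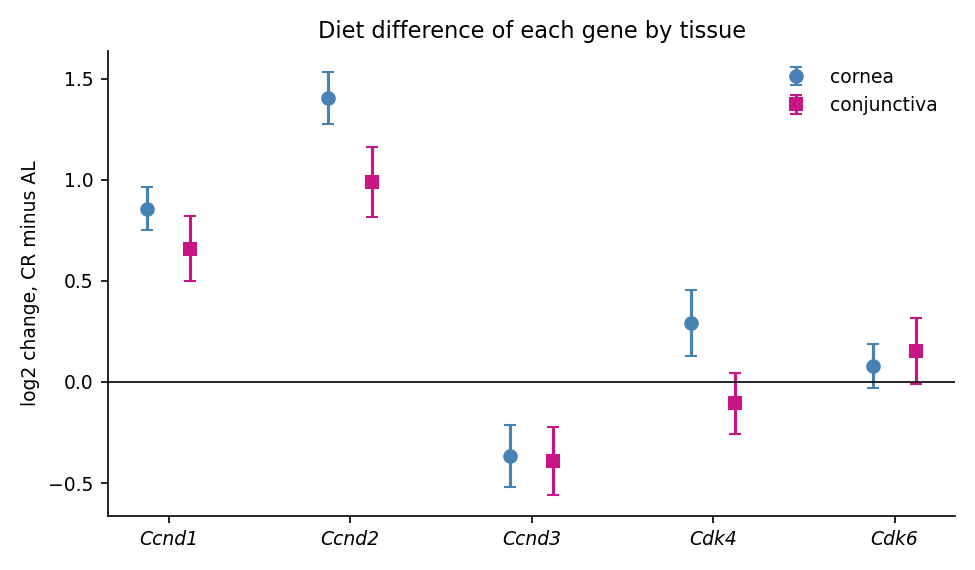
Difference between diets on the log2(normalized count + 1) scale (vertical axis, CR minus AL) for each gene (horizontal axis), with the SE of the limma fit as error bars. Circles stand for the cornea (n = 5 and 5) and squares for the conjunctiva (n = 4 AL and 5 CR). *Ccnd2* and *Ccnd1* lie above 0 and *Ccnd3* below 0 in both tissues.

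Set side by side, the cornea estimate of *Ccnd2* exceeded the conjunctiva estimate by 0.42 ± 0.22 (SE, log2 scale), that of *Ccnd1* by 0.20 ± 0.19 and that of *Cdk4* by 0.40 ± 0.22. For *Ccnd3* the estimates differed by 0.03 ± 0.23, and for *Cdk6* the conjunctiva estimate was the larger (−0.07 ± 0.20). These differences between tissues were not tested, since the cornea values entered the choice of genes, and the authors scaled each tissue in its own table. Their SEs treat the tissues as independent sets, although 8 title numbers occur in both tissues with the same diet.

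Markers of cell types are given beside these values, with the direction of the log2 difference. In the conjunctiva all 7 markers of fibroblasts and keratocytes were lower under CR and 2 of the 7 were called, against 0.359% of all genes, with summed levels of 39255 to 58958 normalized counts under AL and 25902 to 51340 under CR. All 5 macrophage markers were lower there too, none called, with sums of 2267 to 2843 under AL and 1556 to 2123 under CR. The 4 skeletal muscle markers were all higher, none called, with sums of 9226 to 42780 under AL and 10185 to 87164 under CR. Corneal epithelium markers were higher there in 4 of 5, with sums of 88729 to 103071 under AL and 85191 to 126253 under CR. Conjunctival epithelium markers were higher in 2 of 3, with sums of 28770 to 65961 and 23962 to 71852. Goblet cell markers were higher in 2 of 3 tested and endothelial markers in 0 of 4, and none of these epithelial, goblet or endothelial markers was called. In the cornea 1 of the 3 macrophage markers tested was called, against 1.22% of all genes, all 3 were lower, and the sums over all 5 were 275 to 370 under AL and 110 to 270 under CR. The 3 markers of conjunctival epithelium were higher in the cornea, none called, with sums of 25590 to 41969 under AL and 30604 to 63365 under CR. The 3 lacrimal gland markers tested there were lower, none called, with sums over all 5 of 80.5 to 2303 under AL and 56.7 to 396 under CR, and *Prol1* of that list was at 0 in every library. Corneal fibroblast and keratocyte markers were higher in 3 of 6 tested, with sums of 929 to 1877 under AL and 425 to 2133 under CR. The part of any of these cells in the *Ccnd1*, *Ccnd2* and *Ccnd3* values was not tested.

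The summed counts of the 3 cyclins show how much of the D-type pool each gene contributed. The sum was 12294 ± 1313 normalized counts under AL and 25081 ± 3091 under CR in the cornea (SD, n = 5 each), with no overlap between 11019 to 14021 and 22522 to 29639. This corneal sum contains the *Ccnd2* values that entered the choice of genes, so nothing is read from its separation by diet. In the conjunctiva it was 15761 ± 868 (n = 4) and 27918 ± 5454 (n = 5), with ranges of 14692 to 16818 and 20218 to 34414.

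**Figure D3:**
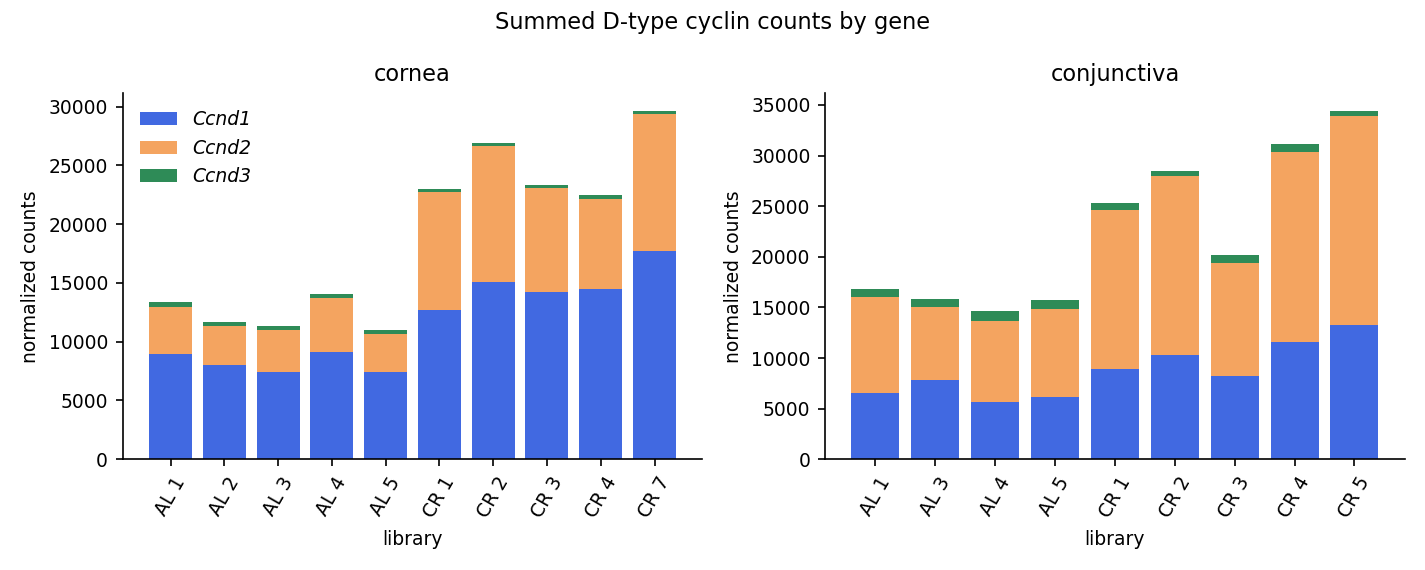
Normalized counts of *Ccnd1*, *Ccnd2* and *Ccnd3* stacked in each library (horizontal axis) of the cornea (left) and conjunctiva (right), where bars start at 0 and each tissue has its own scale. The stacks of all CR libraries exceed those of all AL libraries of the same tissue, and *Ccnd3* is the thin top segment.

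*Ccnd2* made up 30.4% ± 1.76 of this sum in the AL cornea and 39.6% ± 3.88 in the CR cornea, with ranges of 28.5% to 32.9% and 34.1% to 43.4%. *Ccnd1* made up 66.6% ± 1.35 and 59.3% ± 3.69. *Ccnd3* held 2.99% ± 0.51 under AL and 1.15% ± 0.28 under CR. The diets did not overlap in any of these 3 shares, which add up to the whole and so are not separate results. Nothing is read from their separation either, since corneal *Ccnd2* entered the choice of genes.

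In the conjunctiva *Ccnd2* was the larger part by counts, 52.8% ± 5.02 under AL (n = 4) and 59.9% ± 2.73 under CR (n = 5). *Ccnd1* had 41.7% ± 5.42 and 37.6% ± 2.20, and *Ccnd3* had 5.52% ± 0.96 and 2.52% ± 0.92. The shares of *Ccnd2* and *Ccnd1* overlapped between diets, while *Ccnd3* ranged from 4.85% to 6.92% under AL and from 1.43% to 3.89% under CR.

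Levels between genes were compared per kilobase of annotated exon, using the GENCODE M21 lengths. On this scale the order *Ccnd1*, *Ccnd2*, *Cdk6*, *Cdk4*, *Ccnd3* held in all 10 cornea and all 9 conjunctiva libraries. In the AL cornea *Ccnd1* had 1739 ± 175 normalized counts per kilobase, *Ccnd2* 398 ± 58.9, *Cdk6* 144 ± 15.1, *Cdk4* 90.4 ± 16.5 and *Ccnd3* 41.4 ± 4.96. Neighbours in this order were therefore separated by more than their SD. *Ccnd1* ranked at the percentile 98.0 of the genes tested, *Ccnd2* at 90.7 and *Ccnd3* at 46.9. Under CR *Ccnd2* reached 1058 ± 185 per kilobase and the percentile 96.7, and *Ccnd3* stood at the percentile 41.4.

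*Ccnd1* and *Ccnd2* were nearer to each other in the conjunctiva. Under AL they had 1396 ± 199 and 885 ± 103 normalized counts per kilobase, and under CR 2222 ± 433 and 1784 ± 383, a difference under CR that was about the size of the SD of either gene, although *Ccnd1* was above *Ccnd2* per kilobase in all 9 libraries. *Cdk6* had 202 ± 21.4 and *Cdk4* 143 ± 19.9 per kilobase under AL, and *Ccnd3* had 98.5 ± 12.2. Without division by length, *Ccnd2* exceeded *Ccnd1* in 8 of 9 conjunctiva libraries and in 0 of 10 cornea libraries. The labels and the methods name different library kits, one of which reads transcripts near the 3′ end, and for such reads division by length does not apply.

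Of the kinases, *Cdk6* had more counts per kilobase than *Cdk4* in each library. The ratio of *Cdk6* to *Cdk4* per kilobase averaged 1.64 ± 0.40 in the AL cornea, 1.39 ± 0.17 in the CR cornea, 1.42 ± 0.12 in the AL conjunctiva and 1.71 ± 0.32 in the CR conjunctiva (SD). The mean ratio was lower under CR in the cornea and higher under CR in the conjunctiva, and the diets overlapped in both.

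The wider pathway was read from 63 genes in 10 lists, of which 63 were tested in the cornea and 62 in the conjunctiva. In the cornea 2 of 63 were called higher, against 0.749% of all genes tested, and 1 lower, against 0.472%. In the conjunctiva 1 of 62 was called higher, against 0.223% of all genes, and 0 lower, against 0.136%. An unadjusted limma p under 0.05 was reached by 14 of the 63 genes in the cornea, against 18.1% of all genes, and by 8 of the 62 in the conjunctiva, against 9.4%. The whole set had a median log2 difference of −0.06 (cornea) and −0.03 (conjunctiva). The lists were chosen with earlier results of these data known. Nothing is therefore read from the counts of called genes, and the p-values of listed genes below carry the same limit.

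*Usp2*, which encodes a deubiquitinase that removes ubiquitin from cyclin D1 and is also a rhythmic gene of many tissues, was the gene called in both tissues. It rose from 256 ± 47.5 to 650 ± 138 normalized counts in the cornea (log2 change 1.34 ± 0.17, limma adjusted p = 3.5e-04) and from 702 ± 148 to 2065 ± 574 in the conjunctiva (1.54 ± 0.21, adjusted p = 0.00326). The other 7 genes of D-type cyclin turnover were not called in either tissue.

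**Figure D4:**
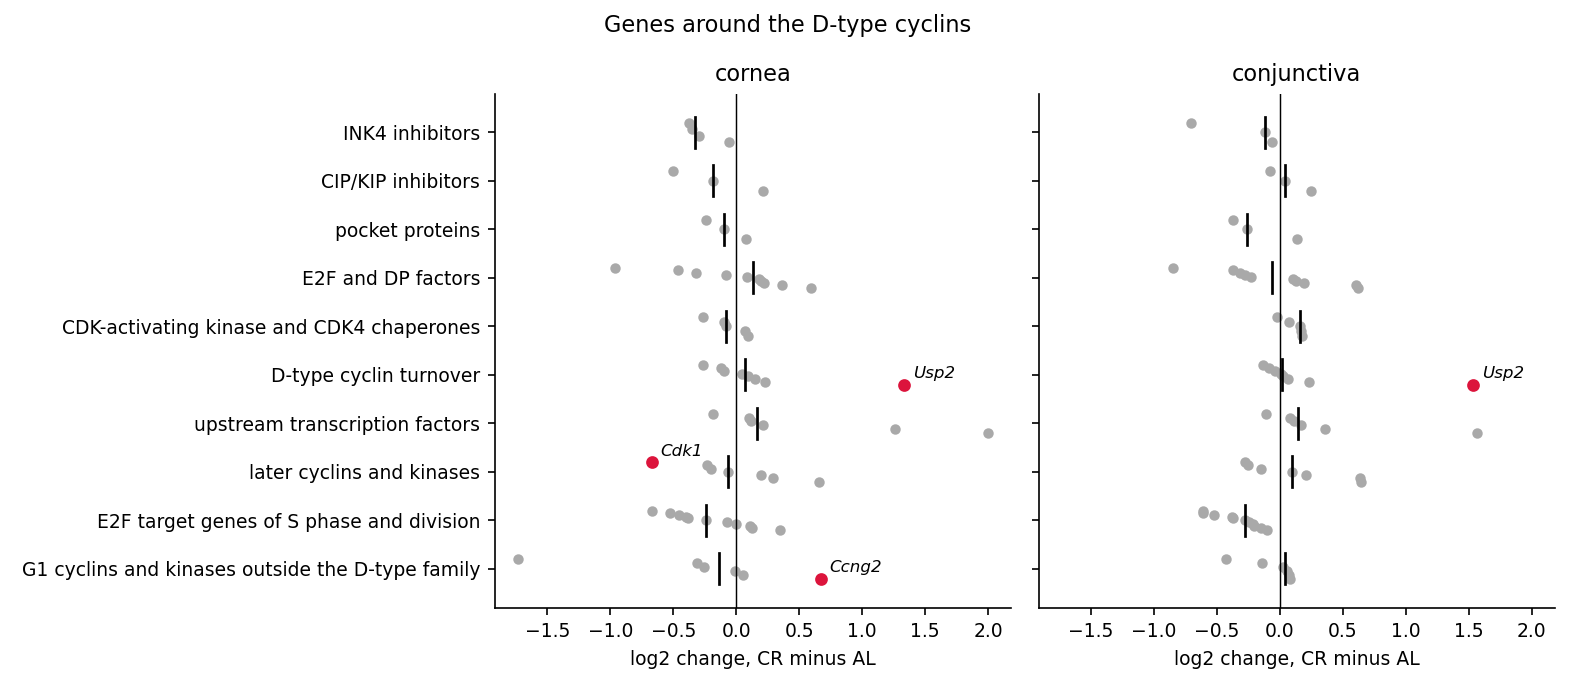
Difference between diets (horizontal axes, log2, CR minus AL) of each tested gene of the 10 pathway lists (vertical axis) in the cornea (left) and the conjunctiva (right). Grey points did not pass the test, red named points were called, and black bars mark list medians. Most points lie within 0.5 of 0, and the named points are *Usp2*, *Ccng2* and *Cdk1* in the cornea and *Usp2* in the conjunctiva.

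Among the kinase inhibitors 0 genes were called in either tissue. The log2 differences of the 4 INK4 genes were below 0 in the cornea and those of the 3 tested were below 0 in the conjunctiva, with medians of −0.32 and −0.12. For *Cdkn2a* in the cornea the group means were equal, at 62.7 each (−0.06 ± 0.32). In the cornea 1 of the 4 was above 0 under quantile normalization, with a covariate for the share of genes at 0, and without AL 2, AL 4, CR 3 or CR 7. In the conjunctiva 1 of the 3 was above 0 under the replicate block and without AL 5, CR 2 or CR 3. The smallest p belonged to *Cdkn2b*, the INK4 inhibitor induced by TGF-beta, which averaged 466 ± 61.8 under AL and 379 ± 46.3 under CR in the cornea (log2 difference −0.30 ± 0.14, limma adjusted p = 0.274) and 228 ± 50.4 and 145 ± 62.2 in the conjunctiva (−0.70 ± 0.27, adjusted p = 0.399). Of the CIP/KIP genes *Cdkn1b*, which encodes p27, had a log2 difference of −0.50 ± 0.16 in the cornea (adjusted p = 0.130), and *Cdkn1c* one of 0.24 ± 0.28 in the conjunctiva (adjusted p = 0.838).

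Downstream of the kinases, no pocket protein gene was called. *Rbl1*, which encodes p107, had a log2 difference of −0.24 ± 0.17 in the cornea (limma adjusted p = 0.474) and of −0.37 ± 0.22 in the conjunctiva (adjusted p = 0.634). Among the 10 E2F and DP genes *E2f7*, an atypical repressor, stood at 225 ± 17.0 under AL and 345 ± 61.6 under CR in the cornea without overlap (0.60 ± 0.16, adjusted p = 0.0616). *Tfdp2*, a dimer partner of the E2F factors, stood at 738 ± 46.1 and 1126 ± 132 in the conjunctiva, also without overlap (0.60 ± 0.14, adjusted p = 0.0734).

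The 11 E2F target genes of DNA replication and division were read by the sign of the log2 difference. In the cornea 4 were higher and 7 lower, with a median log2 difference of −0.24, and in the conjunctiva 0 were higher and 11 lower, with a median of −0.28. Of all genes tested, 46.9% were higher in the cornea and 48.0% in the conjunctiva. By group means *Mki67* did not follow in the conjunctiva, at 647 ± 118 under AL and 652 ± 294 under CR (−0.10 ± 0.32). Under quantile normalization 3 were higher and 8 lower in the cornea, and over all alternatives this ranged from 4 and 7 to 1 and 10. The latter was seen under the replicate block and without CR 7. In the conjunctiva quantile normalization gave 0 and 11, while 1 gene was higher without AL 1, 2 without AL 3 and 2 without CR 3. The conjunctival median moved to −0.12 without AL 3 and to −0.47 with a covariate for the share of genes at 0. None of the 11 genes passed both thresholds in either tissue. An unadjusted limma p under 0.05 was reached by 3 of 11 in the cornea, against 18.1% of all genes, and by 1 of 11 in the conjunctiva, against 9.4%. *Top2a*, a topoisomerase of dividing cells, went from 3183 ± 459 to 2216 ± 356 in the cornea without overlap, with a limma adjusted p of 0.0436 and a log2 difference of −0.53 ± 0.13, short of the 1.5-fold threshold. *Mcm6*, a subunit of the replicative helicase, had the smallest p of the list in the conjunctiva (−0.53 ± 0.19, adjusted p = 0.354).

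*Cdk1*, the kinase of mitosis, fell in the cornea from 757 ± 77.0 to 483 ± 97.2 normalized counts (−0.67 ± 0.15, limma adjusted p = 0.0280). That call was lost without AL 1 (adjusted p = 0.0702), AL 2 (0.0867), AL 5 (0.0945), CR 2 (0.0849) or CR 3 (0.0969), and with a covariate for the share of genes at 0 (0.136). In the conjunctiva it stood at 491 ± 171 and 396 ± 106 (−0.27 ± 0.27, adjusted p = 0.799). *Ccne2*, a cyclin of the Cdk2 kinase, had the smallest p among later cyclins and kinases in the conjunctiva (0.64 ± 0.29, adjusted p = 0.509). Of the cyclins outside the D-type family *Ccng2*, whose product is linked to cell cycle arrest, rose in the cornea from 398 ± 41.9 to 649 ± 151 (0.68 ± 0.16, adjusted p = 0.0386). It was not called without AL 1 (0.109), AL 2 (0.0649), AL 3 (0.101), AL 5 (0.0955), CR 3 (0.128), CR 4 (0.0704) or CR 7 (0.0637), nor with that covariate (0.167). In the conjunctiva it stood at 429 ± 126 and 446 ± 120 (0.05 ± 0.24, adjusted p = 0.963). In that list *Cdk14* had the smallest conjunctival p (−0.43 ± 0.25, adjusted p = 0.626). Whether *Cdk1* and *Ccng2* differ between tissues was not tested.

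Among the 6 upstream transcription factors none was called. *Myc*, an activator of cyclin and kinase genes, was low in the cornea, with 45.3 ± 29.2 normalized counts under AL and 96.9 ± 40.2 under CR (1.26 ± 0.42, limma adjusted p = 0.136). *Tcf7l2*, the Wnt effector, had 1393 ± 30.6 and 1800 ± 249 in the conjunctiva (0.36 ± 0.14, adjusted p = 0.389). Of the genes that activate or fold Cdk4, *Mnat1* had the smallest p in the cornea (−0.26 ± 0.16, adjusted p = 0.410) and *Cdk7* in the conjunctiva (0.18 ± 0.15, adjusted p = 0.771).

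Genes whose values were closest to those of *Ccnd2* were found from the root mean square (RMS) difference of log2(normalized count + 1), centred within each tissue, over the 19 libraries and 9452 genes. The 5 closest were *Lgalsl* (0.222), *Slc6a6* (0.277), *Ccnd1* (0.295), *Wee1* (0.313) and *Ptgs1* (0.316), beside an RMS of 0.653 for *Ccnd2* itself about its tissue means. *Lgalsl* encodes a galectin-like protein, *Slc6a6* the taurine transporter, *Wee1* the kinase that inhibits Cdk1, and *Ptgs1* a cyclooxygenase. The libraries share diet groups, so this is a description of likeness. Of the other members *Cdk6* ranked 1399, *Cdk4* 1940 and *Ccnd3* 8268.

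**Figure D5:**
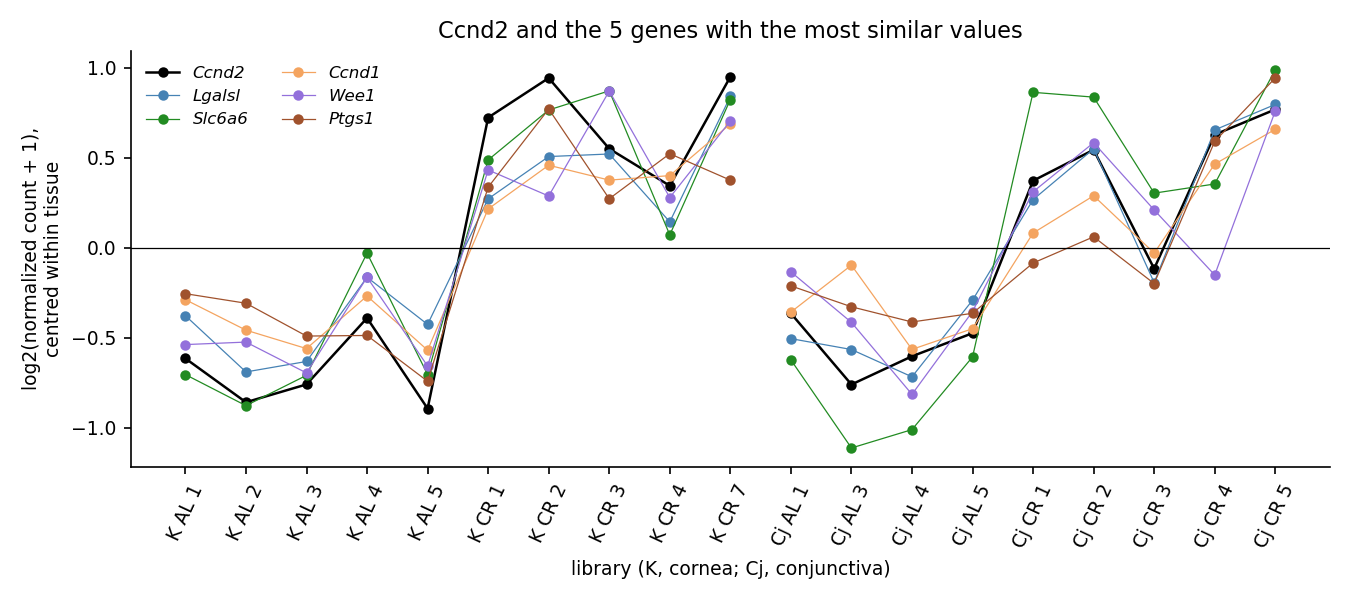
Level of *Ccnd2* (black) and of the 5 closest genes in the 19 libraries (horizontal axis; K, cornea; Cj, conjunctiva), as log2(normalized count + 1) minus the tissue mean (vertical axis). Lines only join the points of a gene, since libraries have no order. Most CR points lie above 0 and the AL points below it, and conjunctiva CR 3 has *Ccnd2* just below 0.

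In this comparison *Lgalsl* had a log2 difference of 0.91 ± 0.14 (cornea) and 0.93 ± 0.19 (conjunctiva), and *Slc6a6* one of 1.21 ± 0.17 and 1.51 ± 0.18. *Wee1* had 1.03 ± 0.15 and 0.77 ± 0.20, and *Ptgs1* 0.91 ± 0.14 and 0.59 ± 0.21 (SE). In both tissues these genes were higher under CR, as the choice by likeness to *Ccnd2* fixes.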

How the data were processed

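RNA-seq values of 19 libraries were used, 10 from the cornea and 9 from the conjunctiva, grouped by diet from their labels. The authors trimmed single reads with cutadapt, aligned them to mm10 with STAR, counted them per gene with HTSeq and scaled them with DESeq2 size factors (methods), while the submitters' processing notes name GRCm39 and DESeq2. Versions were not given in the sources used here. The deposited values are log2 of the normalized count plus 1, scaled by the authors within each tissue. They were turned back into normalized counts and whole reads, and 100% of values came out whole within 0.01 reads. Of 24557 features, 5 that repeated a symbol were left out, and 0 columns lacked a sample.

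Diets were compared with limma 3.58.1 (statmod 1.5.0, R 4.3.3) with an intensity trend and robust moderation, on log2(normalized count + 1), which understates changes of low genes, over genes with a mean of 10 normalized counts or more. The call required a Benjamini-Hochberg adjusted p under 0.05 over all genes tested and a fold over 1.5. Sequences and lengths came from GENCODE M21 and RefSeq with Python 3.11.15, pandas 2.3.3 and biopython 1.88. The code was tested on simulated data. Genes named beyond the 5 members were, by rule, those called in a pathway list in either tissue, the gene with the smallest p in each tissue of a list with none called, and the 5 closest to *Ccnd2*; *Cdkn2a* and *Mki67* were added after their values were seen. The members and lists were chosen with earlier results of these data known. Alternatives covered the pseudocount, the filter, quantile normalization, array weights, voom on recovered reads, a covariate for the share of genes at 0, a replicate block and leaving out each library.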

Additional observations from a re-analysis of the deposited data

Results flagged for a closer look

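Over 32 groups of 4 or 5 libraries (5 genes and 3 cyclin shares in 4 groups each), 3 values stood apart from the rest of their group by Dixon's criterion, which chance meets in about 1 of 20 groups. Conjunctiva AL 3 had a *Ccnd1* share of summed D-type cyclin counts of 49.8%, where the next AL library had 39.2%. The *Ccnd2* share of the same library was 45.3%, the next being 54.4%, and these shares are parts of the same sum. In the cornea, AL 4 had a *Ccnd3* share of 2.11%, and the next lowest AL library had 3.08%. AL 4 was also the AL cornea library with the largest share of genes at 0 (45.2%), and the part of that in its *Ccnd3* share was not tested.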

How the results depend on the processing

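The log2 difference of *Ccnd2* in the cornea stayed between 1.22 and 1.49 and that of *Ccnd1* between 0.71 and 0.95 over all alternatives run. With a covariate for the share of genes at 0, corneal *Cdk6* moved from 0.08 to −0.077, *Cdk4* from 0.29 to 0.04 and *Ccnd3* from −0.36 to −0.21, and conjunctival *Cdk6* turned from 0.15 to −0.0036 (limma adjusted p = 0.996). In the conjunctiva *Ccnd1* was called with array weights (0.63, adjusted p = 0.0265), its adjusted p ranging from 0.0265 to 0.389. *Ccnd2* lost its call under the replicate block (0.96, adjusted p = 0.0929), its adjusted p ranging from 0.00101 to 0.0929. Leaving out single libraries gave 0.91 to 1.13 for *Ccnd2* and 0.57 to 0.75 for *Ccnd1* in the conjunctiva. The call of *Ccnd2* was kept in 3 of these 9 fits, and *Ccnd1* was called in 1.

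Counts of called genes moved more. In the cornea, 150 became 705 with array weights, 99 with voom, 62 with the covariate, 46 with the replicate block and 53 to 536 without single libraries, the most without AL 4 and the fewest without AL 5. With AL 4 and CR 1 both left out it was 1212, a choice made after seeing the data and by a measure that differs between diets, so this count is no measure of stability. In the conjunctiva, 50 became 149 with array weights, 10 with the block and 26 to 127 without single libraries, the most without CR 3 and the fewest without CR 2. *Usp2* was called under each alternative in the cornea, and in the conjunctiva under each except the block (adjusted p = 0.168), where *Cdk1* and *Ccng2* in the cornea had adjusted p of 0.0986 and 0.210. *Ccng2* was also not called with no filter (0.0630) or with voom (0.0539). Pathway genes called with array weights were 6 in the cornea and 2 in the conjunctiva.

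Deviations of same-numbered AL and CR libraries had correlations between −0.30 and 0.29 (cornea) or −0.06 and 0.05 (conjunctiva) over 4 pairs each. Of the 4 AL libraries with a partner, 1 in the cornea and 0 in the conjunctiva were closest to their own number. With 4 pairs this cannot show whether equal numbers mark a shared cage or batch, and the labels do not say. The block therefore remains a limit on the *Ccnd2* call. A library without a same-numbered partner adds nothing to the diet estimate under the block.

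Per kilobase of exon, the cyclin shares became 79.9% *Ccnd1*, 18.2% *Ccnd2* and 1.92% *Ccnd3* in the AL cornea, and 74.3%, 24.9% and 0.772% in the CR cornea. In the conjunctiva they became 58.5%, 37.3% and 4.18% under AL and 54.5%, 43.5% and 1.96% under CR. The 5 genes closest to *Ccnd2* were the same 5 of 5 with a pseudocount of 10 and with a minimum mean of 10 in both tissues. Alternatives not named in this section kept each member's direction and call, and kept counts within 1.5 times. How small a change of the kinases could be detected with 4 or 5 libraries a group was not tested.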
